A study of Mus musculus with 4 samples.

Results

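The expression of 10 cytokine genes of T cells was followed through transplanted mouse mammary tumours: Ifng, Tnf, Lta, Il2, Il21, Il4, Il13, Il10, Ccl1 and Csf2, which are 10 of the 23635 genes counted. They were read in the T cells, natural killer (NK) cells and macrophages of tumours grown from Py8119, a mouse mammary carcinoma line whose transplants serve as a model of triple-negative breast cancer. The control group was 2 tumours labelled NC with the genotype control (control 1 and control 2). The other group was 2 tumours labelled Sema4d-shRNA (shRNA 1 and shRNA 2), in which a short hairpin RNA was used to knock down Sema4d, the gene of a membrane semaphorin. All 4 were transplants of this line. The labels give no age or strain of the host, name the sampled cells tumour cells, and do not say whether the libraries came from separate animals, so every p-value here measures the spread between these 4 libraries.

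T cells were chosen by measured values: they are cells with 1 or more unique molecular identifier (UMI, 1 counted transcript) of Cd3d, Cd3e or Cd3g that also fell in clusters carrying T or NK markers. Of 42359 cells left after filtering, 2526 had a Cd3 UMI, 1635 of these lay in such clusters, and the other 891 lay in clusters of other cells with a median depth of 11252.5 to 14367.5 UMIs per library. Of the 1635 T cells, control 1 held 318, control 2 held 216, shRNA 1 held 352 and shRNA 2 held 749, with a median of 2112.5 to 2302.5 UMIs per cell. CD8 T cells (a Cd8a or Cd8b1 UMI and no Cd4 UMI) numbered 980, CD4 T cells (the reverse) 158, cells with neither 486 and cells with both 11. A T cell with 1 UMI of Cd3 just met the rule, and asking for 2 left 276 and 194 control and 308 and 688 shRNA cells. NK cells (no Cd3 UMI, an Ncr1 or Klrb1c UMI) numbered 273 and macrophages 10526. Macrophages here are all clusters classed as macrophage or monocyte-like, so the name covers monocytes too. A cluster of 1502 cells among them, before doublets were left out, had Plac8, Ly6c2, Il1b, Chil3 and Ccr2 among its top genes. Cd3, Cd4, Cd8a and Cd8b1 are not compared, since they chose the cells, and no cytokine was used to choose or cluster cells.

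Marker levels are given for the chosen cells. Cd3 UMIs and clusters carrying T or NK markers chose the T cells, so the presence of T-cell markers is no independent check. All 7 of the 7 T-cell markers listed were present in the T cells of every library, with summed levels of 3411 to 4037 CPM (the UMIs of a gene scaled to a fixed total of UMIs of the summed cells, counts per 1e6). All 16 macrophage markers were present too, at 2248 CPM in control 1, 6048 CPM in control 2 and 1974 and 1954 CPM in the shRNA libraries, so control 2 T cells carried the most macrophage RNA. Mast cell and basophil markers summed to 4.71 to 5.99 CPM. Sema4d stood at 6.58 and 7.41 CPM in the tumour cells of the control libraries and at 3.86 and 5.44 CPM in those of the shRNA libraries. It was also lower in shRNA T cells (203 and 225 against 167 and 176 CPM) and NK cells (294 and 186 against 129 and 125 CPM). In macrophages the groups overlapped (70.5 and 65.7 against 64.7 and 80.1 CPM). The low tumour-cell values are thus no check of the knockdown, which was not tested. Mitochondrially encoded genes made up 1.21% and 1.14% of the UMIs of control T cells and 0.263% and 0.450% of shRNA T cells, and this gap recurred in NK cells and macrophages. The part of this gap in the results below was not tested. Libraries shared 8360 cell names, but 0 cells were identical.

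Ifng, Tnf and Lta are the cytokines by which type 1 T cells arm macrophages and damage target cells, and Il2 and Il21 feed the growth and help of lymphocytes. Il4 and Il13 are the type 2 cytokines that switch macrophages to an alternative state, and a differentiated helper T cell typically transcribes genes of 1 of these sets and silences the other. Il10 restrains inflammation, Ccl1 is a chemokine for cells with the receptor CCR8, and Csf2 encodes GM-CSF, which matures myeloid cells. Signals from the T-cell receptor reach most of these genes through the factors NFAT and AP-1, with T-bet favouring Ifng and GATA3 favouring Il4 and Il13.

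Promoters are shown for the 4 members on which the results below turn most: Ifng, the main type 1 gene, Il4 and Il13, the type 2 pair, and Ccl1, the chemokine member. Each is the 250 bases before the RefSeq start (GRCm38.p6), read 5′ to 3′ on the gene's strand. Capitals mark a core NFAT motif (GGAAA or its reverse complement TTTCC) or a GATA motif (AGATAA, either strand).
Ifng (chr10:118440796-118441045, plus strand): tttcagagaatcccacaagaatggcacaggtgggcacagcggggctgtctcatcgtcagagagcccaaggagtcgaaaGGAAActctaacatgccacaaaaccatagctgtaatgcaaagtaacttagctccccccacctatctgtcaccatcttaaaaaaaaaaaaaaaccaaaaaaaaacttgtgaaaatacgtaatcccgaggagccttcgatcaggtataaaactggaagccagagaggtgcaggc
Il4 (chr11:53618666-53618915, minus strand): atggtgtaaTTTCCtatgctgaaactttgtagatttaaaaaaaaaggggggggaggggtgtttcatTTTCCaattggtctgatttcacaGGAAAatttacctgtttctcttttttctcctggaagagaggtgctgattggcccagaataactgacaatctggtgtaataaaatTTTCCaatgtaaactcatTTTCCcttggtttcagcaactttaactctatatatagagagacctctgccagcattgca
Il13 (chr11:53634703-53634952, minus strand): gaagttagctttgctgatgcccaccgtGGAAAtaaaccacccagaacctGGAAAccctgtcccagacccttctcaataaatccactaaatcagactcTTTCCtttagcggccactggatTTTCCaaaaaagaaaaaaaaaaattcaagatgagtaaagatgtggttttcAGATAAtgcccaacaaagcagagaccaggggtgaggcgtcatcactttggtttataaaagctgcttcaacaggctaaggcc
Ccl1 (chr11:82179813-82180062, minus strand): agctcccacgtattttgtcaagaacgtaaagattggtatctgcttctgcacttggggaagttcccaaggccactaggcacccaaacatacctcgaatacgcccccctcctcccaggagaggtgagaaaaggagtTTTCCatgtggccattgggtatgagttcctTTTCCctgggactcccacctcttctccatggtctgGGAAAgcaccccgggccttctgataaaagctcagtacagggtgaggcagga

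The NFAT letters occurred 1 time before Ifng, 5 times before Il4, 4 times before Il13 and 3 times before Ccl1. They also occurred 3 times before Tnf, 2 times before Lta, 2 times before Il2, 3 times before Il21 and 2 times before Csf2, and 55.6% of 32851 RefSeq promoter windows of the same length hold them. The GATA letters occurred 1 time before Il13 and 1 time before Csf2, against 9.99% of all windows. A full AP-1 motif (TGACTCA, 4.46% of windows) and a T-box motif (TCACACC, 3.33% of windows) occurred before no member, with both strands read. No motif contains another. The matches describe letters only. RefSeq gives a second start of Il4, whose window held none of the motifs. Of the 10 members 9 matched the table of promoters.

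In the genome (GRCm38, GENCODE M21) Il4 lies on chromosome 11 from 53602982 to 53618669 and Il13 from 53631324 to 53634702, both on the minus strand with 12654 bases between them. Between Il13 and Il5, another type 2 gene, lie 86091 bases. Tnf (chromosome 17, 35199381 to 35202007) and Lta (35203165 to 35205351) are neighbours on the minus strand with 1157 bases between them. Ifng spans chromosome 10 from 118441046 to 118445892 and shares bases with the gene model Gm49751 on its own strand, so reads of that stretch cannot be told apart. Il2 shares bases with Adad1, Il21 with Gm12534 and Csf2 with Gm12223, each on the other strand, and Lta with Mir6974 on its own strand. Whether the counting used strand is unknown here, so values of these genes are uncertain to that extent.

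Ifng, the interferon that activates macrophages, was counted mostly in T cells, which held 87.1% to 89.6% of its UMIs per library. Its level in T cells was 281 CPM in control 1, 344 CPM in control 2, 605 CPM in shRNA 1 and 455 CPM in shRNA 2, on 311, 230, 715 and 1062 UMIs. Both shRNA libraries lay above both controls, with means of 313 ± 44.9 CPM (SD, n = 2) and 530 ± 107 CPM (SD, n = 2). The log2 change was 0.79 (SE 0.17), and the edgeR quasi-likelihood test with Benjamini-Hochberg adjustment over all genes gave an adjusted p = 0.162 (unadjusted p = 4.4e-04), so Ifng did not pass the threshold of 0.05. With 2 libraries a group the smallest two-sided p of an exact permutation test is 0.33, which is the value it gave for Ifng. In the whole T-cell comparison 12 of 8161 genes were called, or 0.147%, and 0 of the 7 members tested were among them, with 3 under an unadjusted p of 0.05. DESeq2 also called 0 of the 7, with an adjusted p = 0.0615 for Ifng. CPM of both shRNA libraries exceeded both controls for 15.6% of all genes and for 3 of the 7 members (Ifng, Tnf and Il10).

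**Figure D1:**
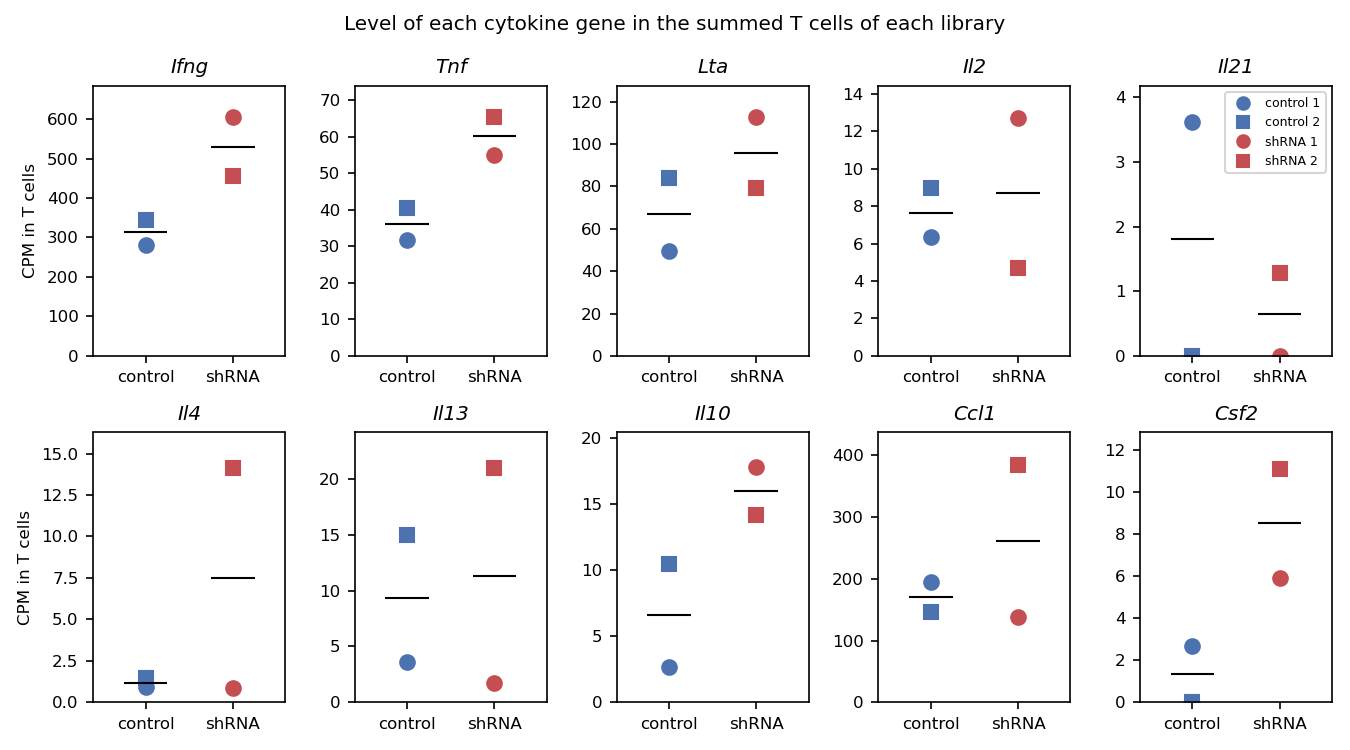
Level of each cytokine gene in the summed T cells of each library, on the y axis in CPM with a separate scale per gene. Blue points are control and red points shRNA libraries, circles replicate 1 and squares replicate 2, and the black bar is the mean of 2. Ifng, Tnf, Il10 and Csf2 lie higher in both shRNA libraries, while the groups of the other 6 overlap.

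An Ifng UMI was found in 25.2% of control 1 T cells (80 of 318, exact 95% interval 20.5 to 30.3), 24.5% of control 2 (19 to 30.8), 30.4% of shRNA 1 (25.6 to 35.5) and 42.2% of shRNA 2 (38.6 to 45.8). All shares in the text are binomial counts with exact Clopper-Pearson intervals, which cover counting error only. Shares of both shRNA libraries lay above both controls, as they did for 12.8% of all genes and for 4 of the 7 members tested (Ifng, Tnf, Il10 and Il2). With each cell thinned to 1000 UMIs the shares were 16.7%, 13.0%, 16.5% and 25.8%, and the groups overlapped. Tumour cells, which should lack the gene, had an Ifng UMI in 0.265% to 0.769% of cells at a median depth of 8890 to 11040 UMIs, far below T cells at 2112.5 to 2302.5 UMIs.

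Ifng UMIs were spread unevenly over cells. The median positive T cell held 2 UMIs in every library, and the highest held 36 and 58 in the control libraries, 185 in shRNA 1 and 43 in shRNA 2. The 5 highest cells held 39.5% and 56.1% of the Ifng UMIs of the control libraries, 46.0% of shRNA 1 and 12.3% of shRNA 2. Positive cells numbered 80, 53, 107 and 316, so 5 cells are the smallest part of them in shRNA 2. These shares therefore also depend on the number of positive cells. The cell with the most UMIs of each member in each library (4 to 7 cells per library) was then left out, a setting chosen after seeing the data and by the very value tested. The log2 change of Ifng in T cells was then 0.98, with an edgeR adjusted p = 0.031. Leaving out 1 library at a time moved it between 0.58 and 1.00, and the edgeR adjusted p fell under the threshold in 3 of these 4 fits, to 0.0318 without control 1, 2.8e-04 without control 2 and 0.0168 without shRNA 2, but not without shRNA 1 (0.689), where the lone sample is assumed to vary like the other group. Adjusted p-values in this design therefore move with single libraries and cells.

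**Figure D2:**
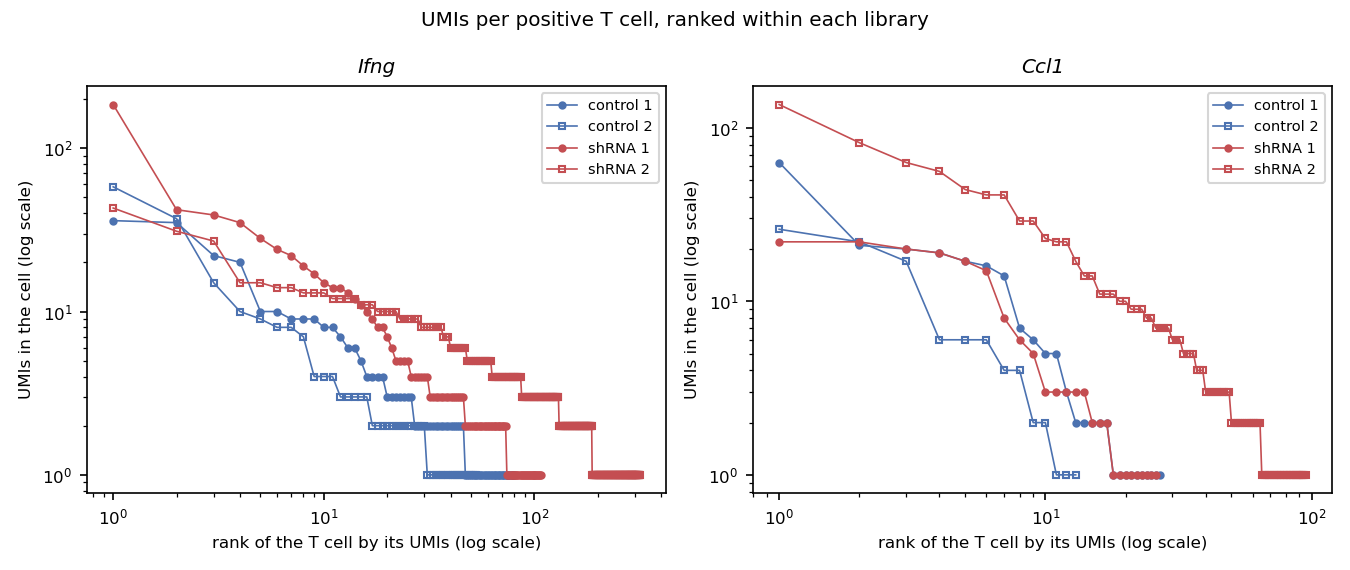
UMIs of Ifng (left) and Ccl1 (right) in each positive T cell (y, log scale), ranked within its library from the highest (x, log scale), with blue for control and red for shRNA libraries. The highest Ifng cell is the 185-UMI cell of shRNA 1, and the highest Ccl1 cell holds 136 UMIs in shRNA 2.

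CD8 T cells carried most of the Ifng. Their level was 429, 402, 674 and 588 CPM in control 1, control 2, shRNA 1 and shRNA 2, and a UMI was found in 38.4%, 34.4%, 45.7% and 54.2% of cells. Both shRNA libraries lay above both controls on either measure. The log2 change was 0.65 (SE 0.16, edgeR adjusted p = 0.188), and 14 of 6402 genes were called in CD8 T cells, or 0.219%. CPM of both shRNA libraries exceeded both controls for 14.0% of all genes and for 2 of the 4 members tested, Ifng and Tnf, and shares of cells did so for 10.3% of genes and the same 2 members. The share of T cells that were CD8 was 55.7%, 59.3%, 49.1% and 67.0%, so it was highest in shRNA 2 and lowest in shRNA 1. The level in all T cells also depends on this make-up. The sums of cells alone do not tell more cells with the gene from more RNA per cell. Cell by cell, the Ifng UMIs of CD8 cells were 285, 180, 468 and 944, in 68, 44, 79 and 272 positive cells of the 4 libraries in the same order. The part of each in the change was not tested.

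In CD4 T cells Ifng was rare in the controls. Their 33 and 20 cells held 4 and 1 UMIs (34.6 and 17.2 CPM), in 2 and 1 cells, whereas 48 and 57 shRNA cells held 209 and 41 UMIs (1316 and 273 CPM), in 12 and 13 cells. Shares were 6.06% (0.743 to 20.2), 5% (0.127 to 24.9), 25% (13.6 to 39.6) and 22.8% (12.7 to 35.8), so the shRNA values were higher and the intervals overlapped. In shRNA 1 a single cell held 185 of the 209 UMIs, 88.5%. The log2 change was 4.74 (SE 1.26, edgeR adjusted p = 0.717), and 2.90 without the highest cells (edgeR adjusted p = 0.0688). Leaving out 1 library gave 3.26 to 5.51, but each such fit leaves 1 library in a group, whose spread is then not measured. With so few cells, the depth does not resolve it. In CD4 T cells, 2 of 2009 genes were called, or 0.0996%, and CPM of both shRNA libraries exceeded both controls for 17.6% of genes and for 3 of 4 members (Ifng, Tnf and Lta). Ifng and Tnf, with at most 4 UMIs per control library, met the filter on low counts through the shRNA libraries. Their place above the controls was thus partly set by being tested, and no conclusion is drawn from this count.

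CD8 and CD4 T cells were compared within the same libraries. Ifng averaged 523 CPM in CD8 and 410 CPM in CD4 cells, a log2 difference of 0.88 (SE 0.89, edgeR adjusted p = 0.772). In this fit 232 of 3826 genes were called, or 6.06%, with 0 of 4 members among them. Without the highest cells the difference was 1.90 (edgeR adjusted p = 5.6e-05). This setting was chosen after seeing the data and by the very value tested. Leaving out the 185-UMI cell, which is CD4, raises the difference by construction, so no conclusion is drawn from this p-value. The difference between the CD8 and the CD4 effect of the hairpin was -3.92 for Ifng (SE 0.93, edgeR adjusted p = 0.998, unadjusted p = 0.00272), and 0 genes were called by this interaction, with 205 genes under an unadjusted p of 0.05. Of 9 type 1 axis genes tested, 2 were called higher and 1 lower in CD8 than in CD4 cells. Of 6 type 2 axis genes, 1 was called higher and 2 lower. Of 11 other T-cell cytokines and chemokines, 3 were called higher and 2 lower. Calls of each list thus went both ways, and only some of them are named here. Tbx21, the gene of T-bet, was higher in CD8 (82.2 against 33.9 CPM, log2 1.16, edgeR adjusted p = 0.0307). Gata3 (23.8 against 69.6 CPM, log2 -1.38, edgeR adjusted p = 0.00838) and Maf, an activator of Il4 (log2 -3.51, edgeR adjusted p = 3.6e-14), were higher in CD4. Maf was also counted in macrophages, at 280, 325, 223 and 170 CPM in control 1, control 2, shRNA 1 and shRNA 2. In the same order Lyz2, a macrophage gene, stood at 113, 1460, 50.4 and 46.6 CPM in CD4 cells. In CD8 cells it stood at 200, 709, 180 and 141 CPM. The part of macrophage RNA in the Maf difference was not tested. The chemokine genes Ccl3 (log2 4.64), Ccl4 (3.68) and Ccl5 (3.05) were higher in CD8 cells with edgeR adjusted p-values of 1.8e-27, 0.0173 and 1.7e-04.

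NK cells also make Ifng. Their level was 44.5, 87.5, 189 and 85.8 CPM in control 1, control 2, shRNA 1 and shRNA 2, on 30, 33, 90 and 120 cells. The groups overlapped, since shRNA 2 lay below control 2. A UMI was found in 10.0%, 9.09%, 28.9% and 20.8% of cells, with shRNA above control, and in 6.67%, 6.06%, 17.8% and 10.8% when thinned. Shares of both shRNA libraries lay above both controls for 16.2% of all genes tested in NK cells. The control shares of Ifng rest on 3 cells in each library. The log2 change was 1.05 (SE 0.55, edgeR adjusted p = 0.701), and 7 of 2759 genes were called, or 0.254%, all lower. The median NK cell had 1841.5 to 2909 UMIs. Macrophages held at most 5 Ifng UMIs per library, with a UMI in 0.107% to 0.236% of cells.

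**Figure D3:**
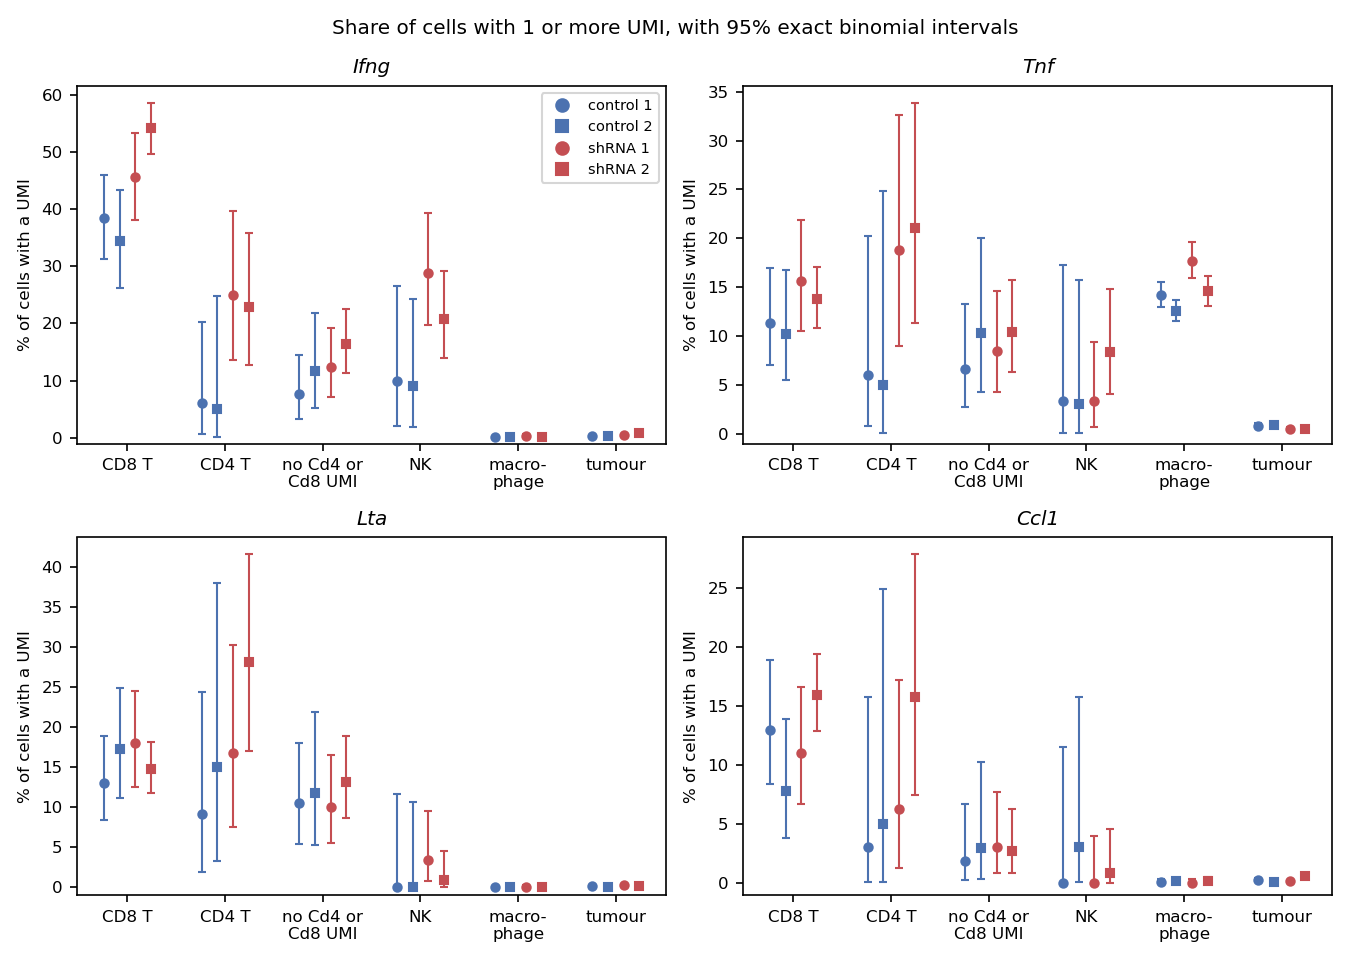
Percent of cells with 1 or more UMI of Ifng, Tnf, Lta and Ccl1 in each cell population (x) and library, with 95% exact binomial intervals. Ifng is found in 34.4% to 54.2% of CD8 T cells and Tnf in 12.6% to 17.7% of macrophages, while all 4 genes are near 0 in tumour cells.

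Tnf, the gene of tumour necrosis factor, was found in T cells and in macrophages. Macrophages held 85.3% and 86.7% of its UMIs in the controls and 80.8% and 62.6% in the shRNA libraries, and T cells held 3.18% to 19.4%. Its level in T cells was 31.6, 40.4, 55 and 65.5 CPM, so both shRNA libraries lay above both controls, with 36.0 ± 6.23 CPM (SD, n = 2) against 60.3 ± 7.40 CPM (SD, n = 2). Macrophage markers, at 6048 CPM, were highest in the T cells of control 2. The part of macrophage RNA in the Tnf values of T cells was not tested. The log2 change in T cells was 0.81 (SE 0.24, edgeR adjusted p = 0.435). A Tnf UMI was found in 9.12%, 9.72%, 13.4% and 13.4% of T cells, and in 2.20%, 4.63%, 6.53% and 6.41% when thinned, again with shRNA above control. Tumour cells had one in 0.517% to 0.878% at their greater depth.

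Tnf in CD8 T cells was 39.2, 35.8, 48.9 and 66.7 CPM (log2 change 0.70, SE 0.29, edgeR adjusted p = 0.815). In CD4 T cells it was 17.3, 17.2, 81.8 and 113 CPM on 2, 1, 13 and 17 UMIs (log2 change 2.42, SE 0.88, edgeR adjusted p = 0.626). In macrophages Tnf stood at 43.1, 40.0, 66.4 and 49.2 CPM, with a UMI in 14.2%, 12.6%, 17.7% and 14.6% of cells and a median of 3641 to 4277 UMIs. Both shRNA libraries lay above both controls in each of these populations. The log2 change in macrophages was 0.56 (SE 0.15, edgeR adjusted p = 0.205), 35 of 12414 genes were called in macrophages, or 0.282%, and CPM of both shRNA libraries exceeded both controls for 12.7% of genes and 2 of 3 members tested (Tnf and Il2), and shares of cells did so for 6.81% of genes and 1 of 3 members (Tnf). The macrophage change was 0.29 without shRNA 1 and 0.79 without shRNA 2. The effect in T cells minus that in macrophages was 0.29 (SE 0.31, edgeR adjusted p = 1), with 0 genes called by this interaction and 567 under an unadjusted p of 0.05. Tnfrsf1b, the gene of a receptor for TNF, was the one receptor of the fixed list called in macrophages, at 89.0, 88.9, 131 and 123 CPM (log2 change 0.59, SE 0.11, edgeR adjusted p = 0.0430).

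Lta, the gene of lymphotoxin alpha, was found almost only in T cells, which held 84.7% to 91.8% of its UMIs. Its level in T cells was 49.7, 83.9, 113 and 79.2 CPM, so the groups overlapped, and control 1 was the lowest. A UMI was found in 11.6%, 15.3%, 14.8% and 15.5% of T cells and in 0.0612% to 0.220% of tumour cells. The log2 change was 0.58 (SE 0.27, edgeR adjusted p = 0.915). It was 0.20 without control 1, 0.32 without shRNA 1 and 0.94 without control 2. In CD8 cells Lta was 46.7, 89.4, 141 and 71.6 CPM, again with overlap (log2 change 0.69, SE 0.50, edgeR adjusted p = 0.997). The change there ranged from 0.14 without shRNA 1 to 1.20 without control 2. In CD4 cells the shRNA libraries lay above the controls, at 52.0 and 103 CPM against 120 and 220 CPM on 6, 6, 19 and 33 UMIs (log2 change 1.23, SE 0.56, edgeR adjusted p = 0.842). Averaged over libraries, Lta was lower in CD8 than in CD4 cells, at 87.2 against 124 CPM (log2 difference -0.52, SE 0.29, edgeR adjusted p = 0.387).

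Il2, the growth factor that T cells make on activation, was counted at 6.32, 8.98, 12.7 and 4.71 CPM in T cells, on 7, 6, 15 and 11 UMIs. Control and shRNA libraries overlapped (log2 change 0.11, SE 0.63, edgeR adjusted p = 1). In 3 of 4 libraries 1 cell held over 50% of these UMIs (5 of 7, 5 of 6 and 8 of 15). A UMI was found in 0.943%, 0.926%, 2.27% and 1.20% of T cells, while tumour cells, at a greater depth, had one in 3% to 4.33%. At equal depth the order turned: thinned, the share was 0.314%, 0.463%, 1.14% and 0.534% of T cells, on 1, 1, 4 and 4 cells, against 0.182%, 0.388%, 0.330% and 0.252% of tumour cells. With so few cells no difference between the groups is read from these shares. Tumour cells held 69.1% to 89.1% of all Il2 UMIs. Il21 was counted 4 times in control 1 and 3 times in shRNA 2, with 0 UMIs in control 2 (0 of 216 T cells, which allows a share of cells with a UMI of up to 1.39% and does not limit cells that express the gene), and shRNA 1 does not list it. Cells with Il21 in CD4 T cells were 2, both in shRNA 2.

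The type 2 genes Il4 and Il13 were found in 14 of 1635 T cells. Il13 UMIs lay in T cells to 94.2% to 100%, whereas T cells held 14.3%, 5.88%, 9.09% and 76.7% of the Il4 UMIs of the 4 libraries and tumour cells 18.6% to 72.7%. In T cells Il4 was counted 1, 1, 1 and 33 times (0.903, 1.5, 0.847 and 14.1 CPM) and Il13 4, 10, 2 and 49 times (3.61, 15, 1.69 and 21.0 CPM). Only shRNA 2 stood apart for Il4, while for Il13 control 2 and shRNA 2 were high and the groups overlapped. Il4 did not pass the filter on low counts. The log2 change of Il13 was 0.69 (SE 1.28, edgeR adjusted p = 1), but -0.13 without control 1 and -2.22 without shRNA 2, so its sign turned with either library left out. A single shRNA 2 cell held 29 of the 36 Il4 UMIs of all T cells (80.6%) and 37 of the 65 Il13 UMIs (56.9%).

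Of the 14 cells 7 had Il4, 10 had Il13 and 3 had both, and 10 had no Cd4, Cd8a or Cd8b1 UMI. A Gata3 UMI was found in 9 of these 14 cells, against 155 of 1635 T cells (9.48%). Adding Il5 gave 18 cells, 4 of which hold Il5 without Il4 or Il13. An shRNA 2 cell of 59549 UMIs that held 2 Il4 UMIs and Cd8a and Cd8b1 UMIs was not marked as a doublet. No Il4 UMI fell in CD4 cells, and 2 CD4 cells, 1 in each shRNA library, held Il13. No macrophage held Il13.

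**Figure D4:**
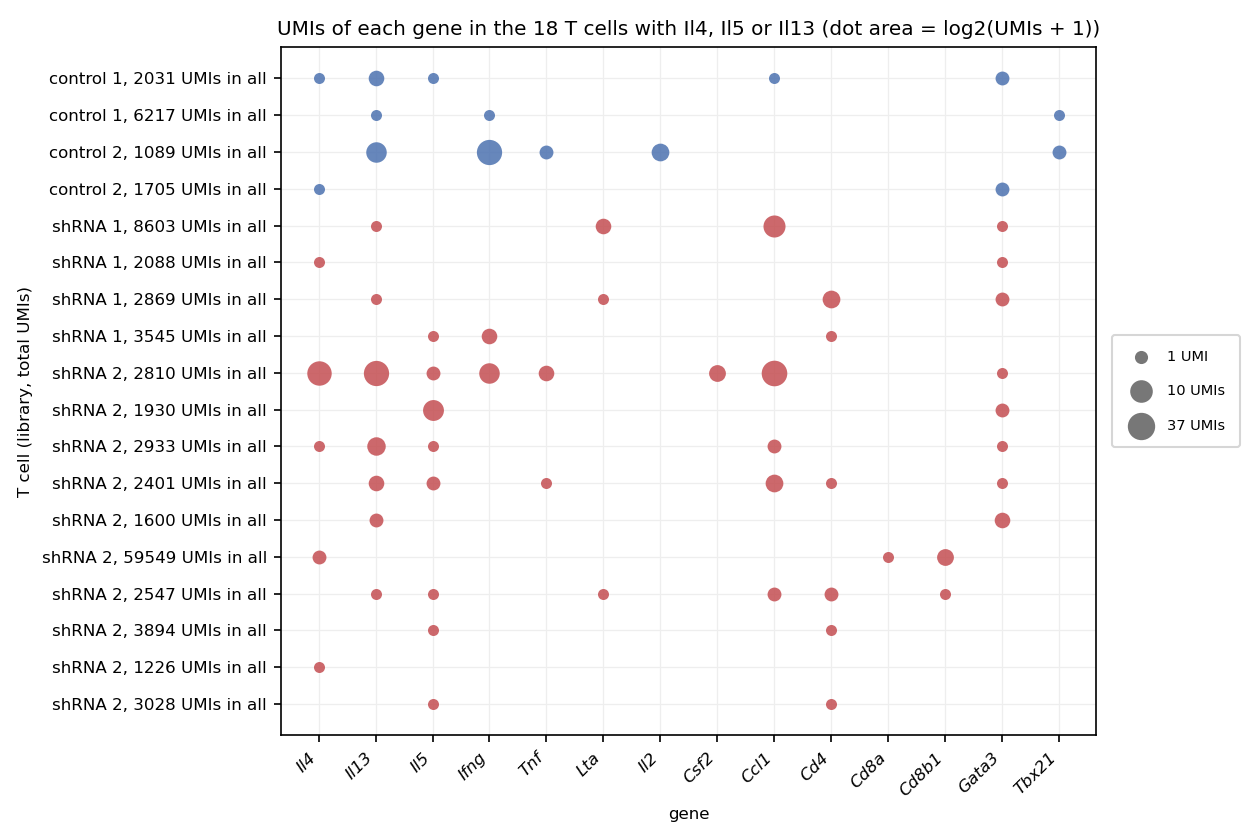
UMIs of 14 genes (x) in each of the 18 T cells with Il4, Il5 or Il13 (y, with library and total UMIs), blue for control and red for shRNA libraries, with dot area proportional to log2(UMIs + 1). Ifng dots lie in 4 cells, 3 of which also hold Il4 or Il13 and no Cd4 or Cd8 UMI.

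Type 1 and type 2 cytokines were then sought in the same cell. Ifng with Il4 or Il13 was found in 0 of 980 CD8 cells, where 463 held Ifng and only 1 held Il4 or Il13. The product of the shares gives 0.542 such cells, all in shRNA 2, so this 0 carries little information. It allows a share of cells with both UMIs of up to 0.306%. It was found in 0 of 158 CD4 cells, which allows up to 1.90% of cells with both UMIs, where 28 held Ifng and 2 held Il13. In the 486 cells without Cd4 or Cd8 UMI it was found in 3, of which 1 was in control 1, 1 in control 2 and 1 in shRNA 2. The product of the shares of each gene gave 0.152, 0.235, 0.246 and 0.656 such cells in the libraries of this subset. Counts of 1, 1, 0 and 1 show no difference between the groups at this depth. Too few cells held Il4 or Il13 to detect less than these limits.

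The 3 cells were unlike. The shRNA 2 cell (2810 UMIs) held 29 Il4, 37 Il13, 2 Il5, 10 Ifng, 3 Tnf, 4 Csf2, 41 Ccl1 and 1 Gata3 UMIs and no Tbx21 UMI. The control 2 cell (1089 UMIs) held 10 Il13, 37 Ifng, 2 Tnf, 5 Il2 and 2 Tbx21 UMIs and no Gata3 UMI. In control 1, a cell of 6217 UMIs held 1 Il13 and 1 Ifng UMI. None was marked as a doublet. Widening the sets to Ifng, Tnf, Lta or Il2 with Il4, Il5 or Il13 gave 8 T cells, of which 3 were CD4, 0 were CD8, 1 had both gates and 4 had neither.

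Il10, which restrains macrophages and T cells, was counted 3, 7, 21 and 33 times in T cells (2.71, 10.5, 17.8 and 14.1 CPM). Both shRNA libraries lay above both controls (log2 change 1.45, SE 0.56, edgeR adjusted p = 0.737). The change was 0.60 without control 1 and 2.51 without control 2. A UMI was found in 0.943%, 2.31%, 4.26% and 3.20% of T cells against 6.87%, 7.29%, 10.5% and 7.62% of tumour cells, at greater depth, and tumour cells held 73.8% to 91.2% of its UMIs. Scaled to depth, tumour cells stood at 5.51, 7.15, 9.22 and 7.49 CPM. When thinned, the shares were 0.314%, 1.39%, 1.14% and 0.935% of T cells, with overlap between the groups, against 0.628%, 0.490%, 1.09% and 0.661% of tumour cells. Macrophage Il10 was 3.84, 5.54, 4.48 and 4.59 CPM (log2 change 0.03, SE 0.25, edgeR adjusted p = 0.985). In CD4 T cells with a Foxp3 UMI, the mark of regulatory T cells, 1, 0, 1 and 1 of 2, 2, 4 and 5 cells held Il10.

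Ccl1, the chemokine for CCR8, was found in T cells to 85.2% to 93.2% of its UMIs. Its level was 195, 147, 139 and 384 CPM in control 1, control 2, shRNA 1 and shRNA 2, so shRNA 2 stood above the rest and shRNA 1 below both controls. The log2 change was 0.65 (SE 0.67, edgeR adjusted p = 1). Without shRNA 1 it was 1.19, and without shRNA 2 it was -0.27, so single libraries set its size and sign. A UMI was found in 8.49%, 6.02%, 7.39% and 12.7% of T cells, and in 5.35%, 4.63%, 5.11% and 8.81% when thinned. Tumour cells had one in 0.0612% to 0.589%. The 5 highest of 27, 13, 26 and 95 positive T cells held 64.8%, 78.6%, 61.0% and 42.4% of its UMIs, shares that also depend on these cell numbers. In CD8 cells Ccl1 was 295, 127, 160 and 469 CPM (log2 change 0.62, SE 0.86, edgeR adjusted p = 0.997). In CD4 cells it was 8.66, 378, 176 and 619 CPM on 1, 22, 28 and 93 UMIs, where a lone cell held all 22 of control 2. Its log2 change there was 1.31 (SE 1.83, edgeR adjusted p = 0.979), and it ranged from 0.11 without shRNA 2 to 5.38 without control 2.

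Csf2 was counted 3, 0, 7 and 26 times in T cells (2.71, 0, 5.93 and 11.1 CPM), with both shRNA libraries above both controls. In control 2 it was found in 0 of 216 T cells, which allows up to 1.39% of cells with a UMI. Tumour cells held 65.0% to 100% of its UMIs, with a UMI in 0.304% to 0.715% of cells, and T cells had one in 0.629%, 0%, 1.70% and 2.14%. Csf2 did not pass the filter on low counts.

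**Figure D5:**
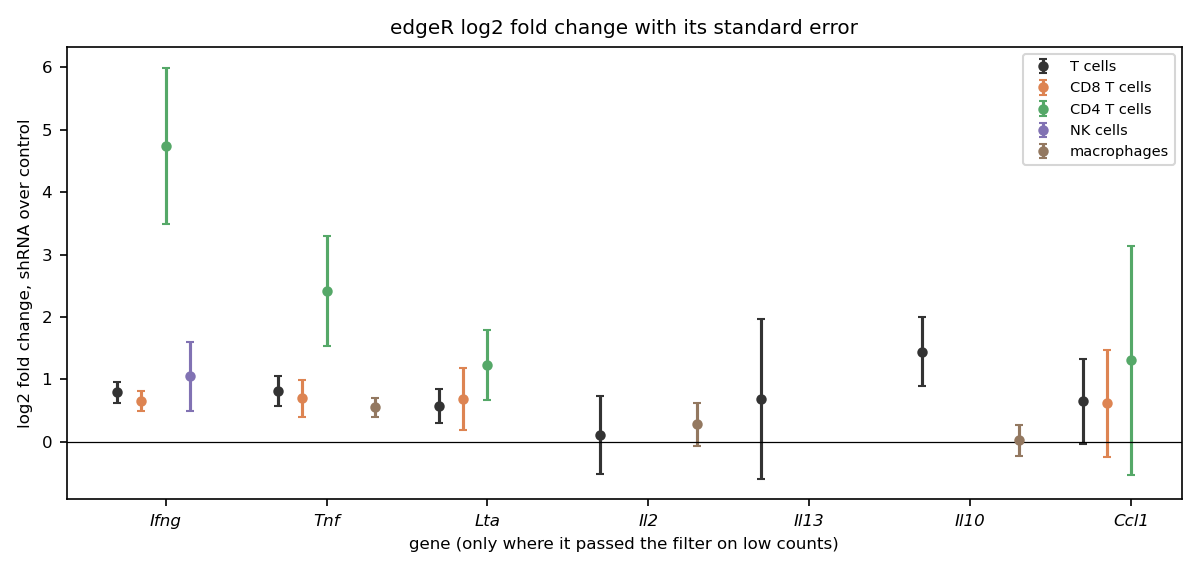
Log2 fold change of each member (shRNA over control, edgeR) with its SE in T cells, CD8, CD4, NK cells and macrophages, where the member passed the filter on low counts. The values lie above 0, from 0.03 for Il10 in macrophages to 4.74 for Ifng in CD4 cells. Of them 0 passed an adjusted p of 0.05. Ifng and Tnf in CD4 cells met the filter through the shRNA libraries, so values above 0 were favoured there by the filter. Of all genes tested, 50.7% to 51.0% lie above 0 per population, and CD8 and CD4 cells are part of the T cells. With 1 library left out, the sign turned for Il2, Il13 and Ccl1 in T cells, Ccl1 in CD8 cells and Il10 in macrophages.

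Members were often found in the same T cell. Ifng and Tnf were both found in 110 T cells, where the product of their shares gives 68.9. Ifng and Lta were found together in 114 cells (82.2), Ifng and Ccl1 in 103 (58.0), Tnf and Lta in 50 (29.0) and Lta and Ccl1 in 40 (23.7). Cells with more UMIs hold more of every gene: the median depth was 2811 UMIs in Ifng-positive and 1985 in other T cells. Thinned to 1000 UMIs, Ifng and Tnf were found together in 34 cells (18.6), Ifng and Lta in 44 (24.7) and Ifng and Ccl1 in 51 (24.1). Thinned, Lta and Ccl1 were found together in 15 cells (8.30), while Tnf and Lta, in 8 cells (6.60), were close to the product. 2 or more of Ifng, Tnf, Lta and Ccl1 were found in 11.6%, 11.6%, 14.5% and 20.8% of T cells, and 1 or more in 38.4%, 40.7%, 47.2% and 56.2%. Thinned, 1 or more was found in 23.6%, 24.1%, 27.8% and 37.8%, with shRNA above control. These are descriptions with no test over cells.

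For each member, genes were named by rule from a log2 ratio of T cells with its UMI to other T cells. This ratio is not that of the CPM printed here, which can give another order. Beside Il10, Neb (53.9 against 7.63 CPM) ranked before Mtmr10 (68.4 against 3.05 CPM), with log2 ratios of 2.76 and 2.60. Ifng-positive cells (556) carried Ccl3 (1663 against 101 CPM in other T cells), Ccl4 (4550 against 463 CPM), Serpine2, Nr4a3 and Prf1, the gene of perforin (566 against 138 CPM). Tnf-positive cells (197) carried Ccl4, Ccl3, Ifng (899 against 342 CPM), Arl15 and Nr4a3. Lta-positive cells (238) carried Serpine2, Xcl1 (1379 against 480 CPM), Tnfsf11 and Cenph. Ccl1-positive cells (161) carried Sema7a (61.3 against 14.6 CPM), Nrgn, Lta (219 against 66.4 CPM), Klra5 and Plekho1. Il2-positive (22), Il10-positive (47) and Csf2-positive cells (24) were few, and their leading genes (Abcg3, Neb and Krt10 first) rest on few UMIs.

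Genes around the cytokines were read from lists. Of 24 activation genes tested in T cells 18 had a log2 change above 0 and 1 was called, with a median of 0.18 against 0.01 for all 8161 genes. That gene was Fos, a part of AP-1 (461, 359, 711 and 973 CPM, log2 change 1.06, SE 0.18, edgeR adjusted p = 0.0382). Junb, its partner, stood at 397, 350, 574 and 726 CPM (log2 change 0.83, SE 0.16, edgeR adjusted p = 0.0502). In CD8 T cells 21 of 23 activation genes lay above 0, and 0 were called by edgeR, with 6 under an unadjusted p of 0.05. Of 11 type 1 axis genes 5 and of 6 type 2 axis genes 1 lay above 0 in T cells, with 0 called by edgeR in each and 1 and 0 under an unadjusted p of 0.05, and Tbx21 (log2 change -0.19) and Gata3 (-0.07) were close to 0. Of 13 other T-cell cytokines and chemokines tested 10 lay above 0, and of 11 receptor genes 2, with 0 called by edgeR and 1 under an unadjusted p of 0.05 in each.

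Macrophage genes that respond to these cytokines were read in macrophages. Of 15 interferon-gamma targets 6 lay above 0 and 0 were called by edgeR (1 under an unadjusted p of 0.05), with a median log2 change of -0.05 against 0.0049 for all genes (Cxcl9 1274, 1517, 1491 and 1049 CPM, and Nos2 54.9, 29.9, 94.2 and 64.1 CPM). Nos2 had the highest log2 change of this list (0.98). The gene under the unadjusted threshold was Cxcl10, which was lower (log2 change -0.27, at 357, 316, 254 and 274 CPM). Of 11 IL-4 and IL-13 targets 7 lay above 0 and 0 were called by edgeR (1 under an unadjusted p of 0.05), with a median of 0.45 (Retnla 15.5, 6.84, 27.7 and 65.1 CPM, and Chil3 36.8, 10.5, 279 and 12.7 CPM). Chil3 (2.73) and Retnla (2.13) had the highest log2 changes of this list. Chil3 was also among the top genes of the cluster with Ly6c2 and Ccr2, counted here as macrophages. The part of that cluster's share of cells in the Chil3 values was not tested. The other 4 genes lay below 0, among them Ccl17 (-0.71) and Socs2 (-0.28). The gene under the unadjusted threshold was Cdh1 (log2 change 0.45). In CD4 T cells Cxcl10, a chemokine gene induced by interferon, was called lower in the shRNA libraries, at 364, 292, 31.5 and 66.6 CPM (log2 change -2.75, SE 0.48, edgeR adjusted p = 0.0325). Macrophage markers summed to 719, 11048, 566 and 373 CPM in these CD4 cells. Their part in the Cxcl10 values was not tested.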

How the data were processed

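Single-cell RNA libraries of 4 tumours were read from the deposited matrices of raw UMI counts per gene and cell, made with PISA 1.0 per the file headers. The submitters' processing notes name STAR 2.5.1b and the builds GRCh38 and mm10. Neither the annotation nor a strand setting is named in the sources used here. All 45220 deposited cells had 1000 or more UMIs, and 45062 passed 300 genes and at most 20% mitochondrial UMIs. Total UMIs were 101909637 for control 1, 83513906 for control 2, 113904173 for shRNA 1 and 119758159 for shRNA 2. The 6% of cells with the highest scrublet score in each library were left out as doublets. The caller's automatic threshold marked 0 to 1.51% per library. Cells were clustered with scanpy 1.11.5 (2000 variable genes, 30 components, 15 neighbours, Leiden resolution 1, 24 clusters), without 34 cytokine genes, and classed by marker lists (pseudocount 10 CPM). Rebuilt classes may differ from the study's own.

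Counts were summed per library and population and fitted with edgeR 4.0.16 (TMM, filterByExpr, robust quasi-likelihood, Benjamini-Hochberg, threshold 0.05) in R 4.3.3 with limma 3.58.1, with DESeq2 1.42.0 as an alternative. The script was tested on simulated data. Thinning drew 1000 UMIs per cell. An upper limit for a count of 0 is 3 counts. The members and lists were chosen with earlier results of these data known. Named genes were the 10 members, list genes past the threshold (at most 10 per comparison), and for members with 20 or more positive T cells the 5 genes with the highest ratio, at 50 CPM or more and higher in every library with 5 or more positive cells. Genes named beside a list that did not pass were chosen after their values were seen. Trac, Trbc2, Trdc and Il22 were not analysed here. A gene that the rule names beside Lta is not reported here.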

Additional observations from a re-analysis of the deposited data

How the results depend on the processing

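Of 241 member values under other settings, 205 kept their direction and side of the threshold, 20 passed it and 16 changed sign. Genes called in T cells numbered 12 in the reported fit and 27 with the DESeq2 test, and 24 to 222 when 1 library was left out. In CD8 T cells 14 became 8 without the highest cells (chosen after seeing the data) and 44 to 94 without 1 library. In CD4 T cells 2 became 1 with DESeq2 size factors, 0 with the DESeq2 test (none adjusted under 0.05) and 2 to 50 without 1 library. In NK cells 7 became 17 with no filter beyond 10 UMIs and 8 to 88 without 1 library, and in macrophages 35 became 66 with the DESeq2 test and 16 to 600 without 1 library. The CD8 to CD4 difference (232) ranged from 158 to 256 without 1 library, its interaction (0) from 2 to 19, and that of T cells and macrophages (0) from 8 to 99. In fits that leave 1 library in a group, that library is assumed to vary like the other group. The cause of these moves was not tested.

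Members with shares above the controls in both shRNA libraries numbered 5 of 10 in T cells, 2 when cells were thinned and 2 when 2 or more UMIs were asked for. For all genes tested in T cells that share, before thinning, was 12.8%. T cells with type 1 and type 2 cytokines were 8 with the wider sets against 3, and CD8 and CD4 cells 3 against 0.

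Signs turned as follows, with log2 values that ranged, when 1 library was left out, in T cells from -0.16 to 0.80 for Il2, -2.22 to 1.86 for Il13 and -0.27 to 1.19 for Ccl1, in CD8 cells from -0.34 to 1.37 for Ccl1 and in macrophages from -0.21 to 0.31 for Il10. For CD8 minus CD4 they ranged from -0.51 to 0.051 for Tnf, -0.93 to 0.12 for Lta and -0.54 to 0.40 for Ccl1, for the effect in CD8 minus that in CD4 from -1.56 to 0.38 for Lta and -5.33 to 1.06 for Ccl1, and for that in T cells minus macrophages from -0.11 to 0.65 for Tnf. Il2 in T cells was -0.16 without control 1, -0.14 with doublets kept and -0.25 with the automatic doublet threshold (added after seeing the data). Il13 in T cells was -0.13 without control 1 and -2.22 without shRNA 2. Without shRNA 2, Ccl1 was -0.27 in T cells and -0.34 in CD8 cells, CD8 minus CD4 was 0.051 for Tnf and 0.12 for Lta, the effect in CD8 minus that in CD4 was 0.38 for Lta, and that in T cells minus macrophages was -0.11 for Tnf. Without control 1, Il10 in macrophages was -0.21, Ccl1 was -0.54 for CD8 minus CD4 and 1.06 for the difference of effects. Ccl1 for CD8 minus CD4 was also -0.11 without Foxp3 cells and -0.49 without the highest cells.

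The replicate numbers do not pair the libraries: deviations of same-numbered libraries correlated at -0.0543 in T cells, -0.0877 in CD8, 0.121 in CD4, 0.0196 in NK cells and 0.0677 in macrophages. With the number as a replicate block, 32 genes were called in T cells, 23 in CD8, 16 in CD4, 6 in NK cells and 247 in macrophages. Among members, Ifng in CD4 cells (4.94, edgeR adjusted p = 8.5e-11) and Tnf in macrophages (0.54, edgeR adjusted p = 0.0251) passed under the block. Neither passed in the fit without it. The Ifng value rests on 4 and 1 control UMIs and on a cell with 185 of the 209 UMIs of shRNA 1. Since the numbers do not pair the libraries and the block leaves little spread to measure, no conclusion is drawn from these p-values.

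Depth limits the values of the 158 CD4 T cells and of Il4, Il13, Il2, Il21, Il10 and Csf2, whose T-cell UMIs number from 0 to 49 per library.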
